A study of Mus musculus with 27 samples.

Results

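Solute carriers are membrane proteins that move small molecules and ions across the plasma membrane and the membranes of organelles, and mouse genes of this superfamily carry symbols that begin with Slc and a family number. Among the 45070 genes of the deposited table, 375 were protein-coding genes with such a symbol, and 201 of these are described here. They were chosen by their level, namely a normalised read count of 10 or more in 3 or more of the 27 samples. A script sorted them by family number into 14 transported classes that held 197 genes. Slc49a4 had no class, and Slc4a1ap, Slc7a6os and Slc9a3r1 are not transporters although their symbols begin alike. The samples were bone marrow-derived macrophages (BMDM), primary phagocytes grown from the marrow of wild type male C57/BL6 mice aged 6 to 8 wk. The cells of all 9 groups were kept with DMSO, a solvent vehicle, for 1 h. They were then left untreated, or were given lipopolysaccharide (LPS, the bacterial cell wall component that activates Toll-like receptor 4) at 10 ng/ml or interleukin-4 (IL-4, a type 2 cytokine) at 10 ng/ml, for 0.5, 1, 2 or 4 h. Each group had 3 replicates, and whether these came from separate mice was not given in the sources used here, so p-values measure the spread between these samples, which may be technical.

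Solute carriers work as uniporters, symporters or exchangers, and many of them are driven by the sodium or proton gradient. In macrophages they set the supply of arginine, glucose and cystine, the handling of iron, zinc and copper inside and outside the phagosome, and the exit of lactate and of peptides and nucleosides released in lysosomes. The RNA measured was chromatin-associated RNA, which holds transcripts that are still being made, so the values follow the making of the transcripts and not the amount of transporter protein.

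The libraries held 2469768 to 2790981 normalised read counts in untreated and IL-4 samples, against 3571492 to 4058199 in the LPS samples. The 201 genes took 1.81 to 2.06% of these in untreated samples, 1.15 to 2.22% after LPS and 1.53 to 1.90% after IL-4. The summed level of 8 macrophage markers lay at 10027 to 11141 in untreated samples, at 11122 to 19679 after LPS and at 10976 to 14044 after IL-4. After LPS these markers did not move together. The mean of Adgre1 went from 4245 to 9452 at 1 h, of Fcgr1 from 72.3 to 971 and of Spi1 from 475 to 1602 at 4 h. That of Csf1r went from 1971 to 456 at 2 h, of Mertk from 1981 to 652 at 1 h and of Lyz2 from 938 to 405 at 2 h. Itgam and Cd68 moved both ways. Lists of B cell, T cell, erythroid and mast cell markers summed to at most 9 in any sample. Fibroblast markers summed to 89 to 208 in replicate 1 of the 9 groups and to 28 to 73 in replicates 2 and 3, neutrophil markers to 8 to 63 and 2 to 13, and dendritic cell markers to 6 to 96 and 2 to 51. The dendritic cell sums also differed by stimulus. Zbtb46 had 5, 4 and 1 in untreated samples and 90, 49 and 43 at 1 h of LPS. Flt3 had 1, 0 and 1 in untreated samples and 6, 17 and 13 at 1 h of IL-4. Of the defining markers Cd3e, Cd3g, Xcr1, Hba-a1, Hbb-bs and Ly6g were listed at 0 in all samples. The part of these markers in the results below was not tested. Replicate 1 lay away from replicates 2 and 3 for several of the genes below, and the values of all 3 replicates are given in the order 1, 2 and 3.

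Levels of the 201 genes in untreated BMDM spanned group means of 0 to 11669 normalised read counts, with a median of 57.7. Set against the length of the gene, the highest untreated levels per kb were those of Slc40a1 at 29.2, which encodes ferroportin, the cellular iron exporter, of Slc37a2 just below it, a sugar phosphate exchanger of the endoplasmic reticulum, and of Slc43a2 at 27.2, a carrier of large neutral amino acids. Next came the taurine transporter gene Slc6a6 at 26.4, the mitochondrial phosphate carrier gene Slc25a3 at 21.5 and Slc9a9 at 20.8, which encodes an endosomal sodium-proton exchanger. In all 3 untreated samples 166 genes reached 10, and 21 genes were below 10 in each of them. Without the LPS samples 13 genes would have missed the minimum, and without the IL-4 samples 9, Slc35f1 being among both. Through LPS samples these were Slc13a3, Slc16a1, Slc17a8, Slc1a2, Slc24a1, Slc28a2b, Slc28a3, Slc35f1, Slc4a11, Slc4a3, Slc4a4, Slc5a12 and Slc6a18. Through IL-4 samples they were Slc25a38, Slc25a5, Slc29a2, Slc2a13, Slc35f1, Slc35g1, Slc5a2, Slc5a6 and Slc6a9. These genes reached the minimum only with values from that stimulus. Any difference of theirs from untreated in that stimulus thus rests on the choice, though not each of them had to differ. They are included in the counts below, in all and by class. At the minimum itself, the third highest value was 10 in Slc24a1, Slc28a3, Slc2a13 and Slc6a18 and 9 in Slc10a3, Slc25a35 and Slc7a4, which were left out. Of the 174 genes left out, 26 were at 0 in all samples and the highest single value was 16. Slc25a1, the mitochondrial citrate carrier, was listed at 0 in all 27 samples, so its level cannot be given.

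LPS changed 183 of the 201 genes over its course (91.0%, limma F test over the 4 times, adjusted p under 0.05), beside 87.6% of all 13901 genes tested. At the peak, the time of the largest difference from untreated, 71 of the changed genes had risen and 112 had fallen, with a median size of 2.00 on the log2 scale, beside 32.9% with a rise and 54.7% with a fall among all genes. These were 81 and 100 with median-of-ratios scaling and 47 and 141 with equal totals of the libraries. IL-4 changed 93 genes (46.3%), beside 40.3% of all genes, with 50 rises, 43 falls (19.4% and 20.9% of all genes) and a median size of 1.09. Both shares lie near the background. A difference of at least 3 on the log2 scale was reached by 41 genes after LPS and by 5 after IL-4. In these bulk samples, fewer cells with a transcript and less of it per cell cannot be told apart. A total of 89 genes changed over both courses, 94 passed the threshold after LPS alone, 4 after IL-4 alone and 14 after neither. The 4 were Slc25a39, Slc26a6, Slc29a1 and Slc6a9. Of these, Slc6a9 was kept through its IL-4 samples, so its place here rests on the choice. The shares of all genes for this split and for differences of at least 3 were not counted. The heat map of all 201 genes shows rows of both colours in every large class.

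**Figure D1:**
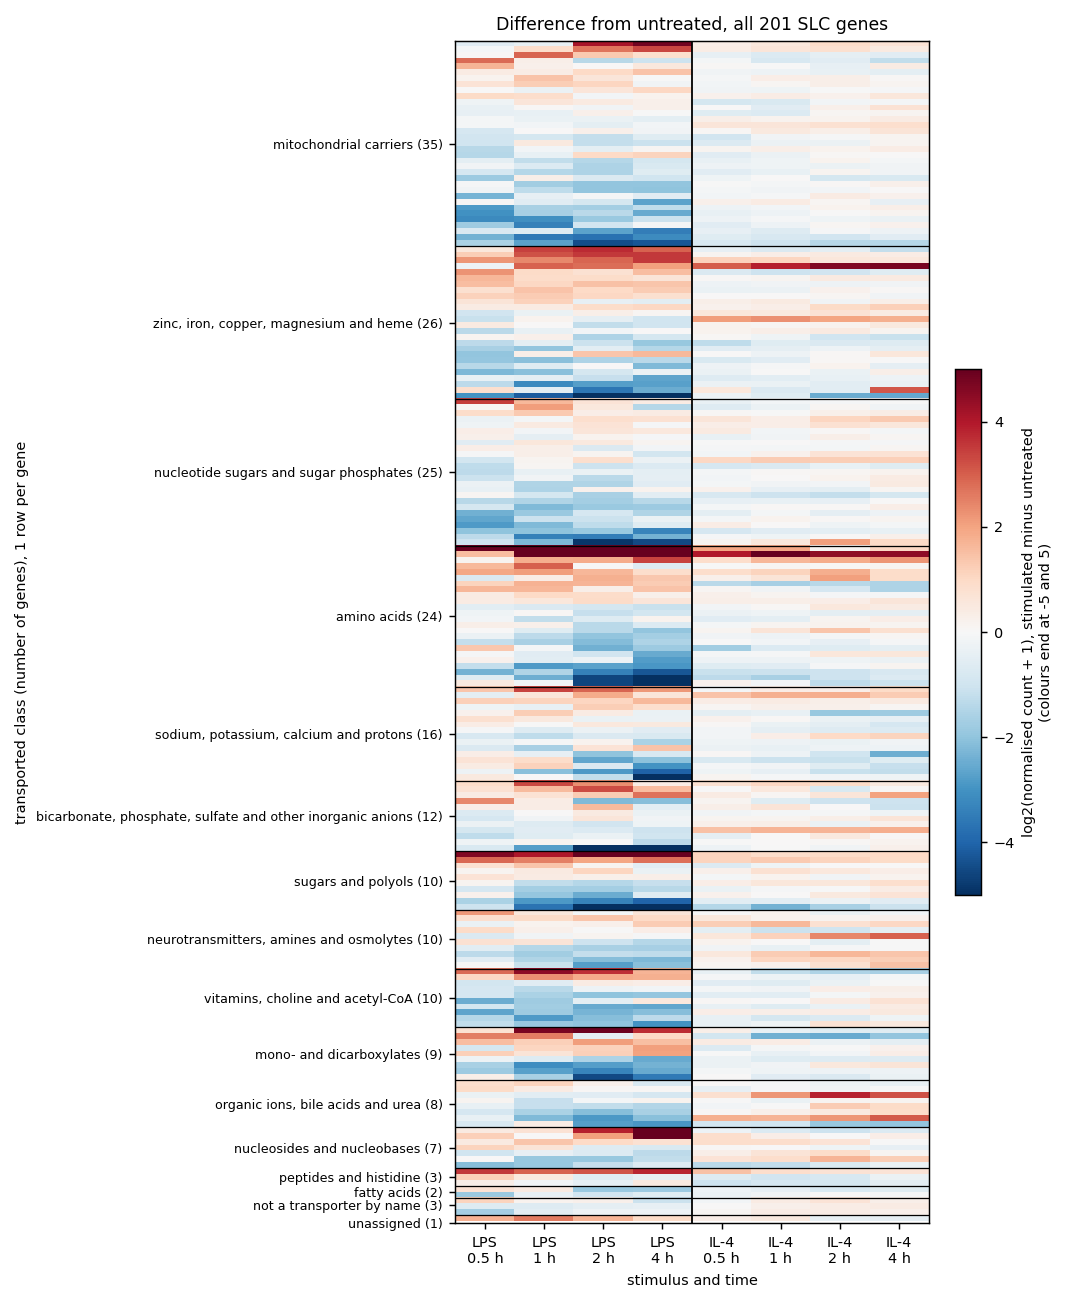
Difference from untreated of the 201 genes (rows, grouped by transported class and sorted by their LPS peak) at each stimulus and time (columns), as log2(normalised count + 1), with red for higher and blue for lower. LPS changed 183 genes and IL-4 changed 93, and the colours of the LPS columns are deeper.

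By time, LPS left 49 genes higher and 64 lower than untreated at 0.5 h (background 19.6% higher and 34.4% lower). At 1 h these were 50 and 73 (24.8% and 39%), at 2 h 56 and 88 (26.9% and 39%), and at 4 h 48 and 92 (25.9% and 37.6%). The share of solute carrier genes that was lower grew from 31.8% at 0.5 h to 45.8% at 4 h, and their median difference went from -0.20 to -0.53, while the median over all genes tested was -0.24 and -0.26. The division into higher and lower depends on the scaling of the libraries, since the LPS libraries have larger totals. With equal totals the 4 times had 34 higher and 99 lower, 38 and 105, 33 and 119, and 35 and 123. With median-of-ratios scaling they had 59 and 51, 59 and 61, 64 and 73, and 61 and 79. After LPS 24 genes were higher at all 4 times and 30 were lower at all 4, and the shares of all genes for this were not counted.

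IL-4 left 20 genes higher and 24 lower at 0.5 h (background 8.15% and 8.14%). At 1 h these were 28 and 24 (11.1% and 9.83%), at 2 h 39 and 32 (14.3% and 13.2%), and at 4 h 43 and 31 (13.4% and 12.5%). With equal totals the early times had 17 higher and 36 lower, and 22 and 35. With median-of-ratios scaling 1 h had 25 and 30. Throughout the IL-4 course 15 genes were higher at all 4 times and 13 were lower at all 4, again without a count over all genes.

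Amino acid transporters held the largest rise of the superfamily. Of their 24 genes, LPS changed 23 (9 rises and 14 falls) and IL-4 changed 13 (6 and 7). Among all genes tested LPS changed 87.6% (32.9% rises and 54.7% falls) and IL-4 40.3% (19.4% and 20.9%). No class was tested against these shares. Slc7a11 (chr3:50364936-50443613, minus strand) encodes the light chain of the exchanger that takes up cystine, the precursor of glutathione, in return for glutamate. Untreated samples had 8, 1 and 1, the samples after 0.5 h of LPS 831, 952 and 720, and those after 1 h 1791, 1391 and 1288. At 2 h and 4 h replicate 1 stood apart, with 770, 223 and 195 and then 725, 237 and 205. Every LPS sample was far above every untreated sample, and the difference at 1 h was 8.80 ± 0.59 on the log2 scale (estimate ± SE, adjusted p = 5.5e-09), or 9.39 without replicate 1. IL-4 samples held at most 29, and the F test of that course gave an adjusted p of 0.14. The IL-4 difference at 0.5 h, 1.96 ± 0.82, did not pass, whereas without replicate 1 it was 2.06 and passed. The gene of its heavy chain, Slc3a2, rose by 0.98 ± 0.18 at 1 h of LPS, from 95, 154 and 142 to 253, 271 and 237.

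Slc7a2 (chr8:40862367-40922070, plus strand) encodes a cationic amino acid transporter that brings in arginine, the substrate of both nitric oxide synthase and arginase. It rose after both stimuli and at different speeds. The untreated samples had 12, 14 and 11. After IL-4 the values were 184, 228 and 228 at 0.5 h, then 429, 530 and 495 at 1 h, and they stood at 271, 285 and 319 at 4 h. After LPS they were 38, 45 and 32 at 0.5 h, 517, 637 and 612 at 1 h, then 1794, 1714 and 1671 at 4 h. Each of these groups lay above the untreated samples. The peak differences were 7.02 ± 0.14 after LPS and 5.19 ± 0.14 after IL-4. Directly compared, LPS minus IL-4 was -2.45 ± 0.14 at 0.5 h (adjusted p = 7.1e-13) and 2.56 ± 0.14 at 4 h (adjusted p = 8.4e-14).

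Among the falls of this class, Slc43a2 had 1430, 1173 and 1140 in untreated samples and 51, 33 and 28 after 4 h of LPS, a difference of -5.06 ± 0.22 (adjusted p = 2.5e-11). After IL-4 it was lowest at 1 h, with 527, 407 and 305, and stood at 820, 722 and 759 at 4 h. Slc7a15, which shares its span with 5033421B08Rik on the other strand, went from 229, 129 and 161 to 4, 1 and 3 at 4 h of LPS. Slc38a2, a sodium-coupled neutral amino acid transporter known to respond to amino acid supply, moved both ways. Its values went from 184, 210 and 256 in untreated samples up to 534, 574 and 520 at 0.5 h of LPS and down to 36, 52 and 34 at 2 h. After 0.5 h of IL-4 it had already fallen to 57, 47 and 99. Slc7a7, a light chain that exports cationic amino acids, rose to 933, 677 and 727 at 1 h of LPS and fell to 89, 74 and 58 at 1 h of IL-4, from 292, 191 and 222, and it overlaps Oxa1l on the other strand. The glutamine transporter gene Slc1a5 fell by 2.50 ± 0.33 at 4 h of LPS, from 44, 101 and 97 to 9, 12 and 18. The leucine transporter gene Slc7a5 stayed low, between 0 and 29 in all 27 samples. Its rise at 2 h of LPS was 1.79 ± 0.61 (adjusted p = 0.018), and without replicate 3 it was 1.66 and did not pass. Slc7a5 also rose at 2 h of IL-4, from 2, 5 and 5 to 29, 14 and 16. Without replicate 1 that IL-4 difference was 1.41 and passed. The Slc7a15 difference at 2 h of IL-4 was -1.27 ± 0.29, and -1.22 without replicate 3, which did not pass.

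Short stretches of promoters are shown to place these and other genes of large change beside known motifs. RefSeq promoters (GRCm38.p6) were at hand for 155 of the 201 genes and 27025 genes in all, and the 250 bases before the start were searched on both strands. The motifs were AP-1 (TGANTCA), the interferon-stimulated response element core (GAAANNGAA), the kappaB consensus, the antioxidant response element (TGACNNNGC), the cyclic AMP response element (TGACGTCA), the E-box (CACGTG) and the STAT motif with a spacer of 3 bases (TTCNNNGAA). The AP-1 and cyclic AMP motifs, and the latter and the antioxidant element, share letters and may overlap. Capitals mark the motif, and each line reads 5′ to 3′ on the strand of the gene.
Slc7a11, STAT motif, chr3:50443763-50443821, minus strand: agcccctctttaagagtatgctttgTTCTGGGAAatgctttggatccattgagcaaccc
Slc28a2, STAT motif, chr2:122426284-122426342, plus strand: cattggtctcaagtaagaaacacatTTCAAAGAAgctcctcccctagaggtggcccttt
Slc37a2, AP-1, chr9:37255814-37255870, minus strand: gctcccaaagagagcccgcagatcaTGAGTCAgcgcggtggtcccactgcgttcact
Slc9a9, AP-1, chr9:94669771-94669827, plus strand: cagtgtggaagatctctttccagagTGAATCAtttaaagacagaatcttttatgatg
Slc43a2, kappaB, chr11:75531444-75531502, plus strand: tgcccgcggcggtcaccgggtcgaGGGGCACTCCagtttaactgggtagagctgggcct
Of the 8 genes with the largest LPS rises 6 had a promoter, and 2 of these, Slc7a11 and Slc28a2, held the STAT motif, beside 7.14% of all promoters. Slc13a3 held the antioxidant element and the E-box. None of the 6 held AP-1, the response element core or kappaB, beside 6.85%, 7.16% and 3.74% of all promoters. Of the 8 largest LPS falls 4 had a promoter, of which Slc37a2 and Slc9a9 held AP-1 and Slc43a2 held kappaB. Of the 5 promoters among the largest IL-4 rises, that of Slc37a2 held AP-1 and none held the STAT motif. Of the 6 among the largest IL-4 falls, that of Slc43a2 held kappaB and that of Slc38a2 the antioxidant element. Over the 155 promoters the antioxidant element stood in 16.1%, beside 10.1% of all promoters, and the E-box in 12.3%, beside 6.04%. AP-1 stood in 7.74% (6.85% of all promoters) and the response element core in 4.52% (7.16%). For kappaB it was 2.58% (3.74%), for the cyclic AMP element 1.29% (1.60%) and for the STAT motif 6.45% (7.14%). All promoters include those of genes below the minimum, and none of these differences was tested. A match of letters is a description of the sequence and says nothing of binding.

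Transporters of zinc, iron, copper, magnesium and heme were 26 genes, and LPS changed each of them, 11 with a rise and 15 with a fall. Among all genes tested LPS changed 87.6%, with 32.9% rises and 54.7% falls. IL-4 changed 15, with 10 rises and 5 falls, beside 40.3% of all genes. Ferroportin (Slc40a1, chr1:45908070-45925594, minus strand) had one of the large LPS falls. Its values went from 630, 475 and 431 in untreated samples to 82, 56 and 56 at 0.5 h, then 12, 0 and 4 at 4 h, a difference of -6.98 ± 0.63 (adjusted p = 1e-07). The size rests in part on the 0 of replicate 2, and without that replicate it was -6.02. It fell later after IL-4, where the values were 372, 312 and 302 at 1 h, then 90, 92 and 85 at 2 h, and the difference at 4 h was -2.55 ± 0.15. All stimulated samples from 1 h on lay below the lowest untreated sample.

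Several genes of metal import rose after LPS. Slc11a2 encodes DMT1, the proton-coupled importer of ferrous iron, and rose from 150, 80 and 99 to 1048, 915 and 964 at 1 h, then 1112, 1406 and 1260 at 4 h, by 3.55 ± 0.25, or 3.89 without replicate 1. Slc39a14, a zinc and iron importer, rose from 69, 46 and 64 to 877, 720 and 787 at 2 h, by 3.73 ± 0.15 (adjusted p = 1.3e-11). After IL-4 the Slc39a14 values were 27, 27 and 22 at 4 h, a difference of -1.19 ± 0.27, which did not pass without replicate 3 (-1.03). The copper importer gene Slc31a1 was at 193, 155 and 167 in untreated samples, reached 1063, 723 and 710 at 0.5 h of LPS and was lower after IL-4, at 123, 64 and 75 at 1 h. Its neighbour in the family, Slc31a2, rose after both stimuli, from 104, 93 and 114 to 1119, 1233 and 1279 at 4 h of LPS and 262, 214 and 221 at 0.5 h of IL-4. The Slc31a1 difference at 1 h of IL-4, -1.02 ± 0.21, was -0.90 without replicate 2 and -0.95 without replicate 3, and neither passed.

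Slc11a1 encodes NRAMP1, which withdraws metal ions from the phagosome. It fell at 2 h of LPS from 211, 152 and 162 to 83, 47 and 51, a difference of -1.55 ± 0.23, and to 99, 80 and 66 at 4 h of IL-4. That IL-4 difference of -1.09 ± 0.25 did not pass without replicate 2 (-1.18) nor without replicate 3 (adjusted p = 0.082). The zinc exporter gene Slc30a1 dipped from 18, 13 and 9 to 4, 2 and 2 at 0.5 h of LPS and stood at 44, 41 and 39 at 4 h. The zinc importer gene Slc39a8 fell by 2.19 ± 0.27 at 4 h of LPS, and the heme transporter gene Slc48a1, which overlaps Hdac7 on the other strand, fell by 1.88 ± 0.36.

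Zinc transporter genes made up 3 of the 8 largest IL-4 rises. Slc30a4, which loads zinc into vesicles, had 5, 10 and 8 in untreated samples and 190, 233 and 254 at 4 h of IL-4, a difference of 4.74 ± 0.21 (adjusted p = 4.2e-09). It also rose after LPS, to 56, 53 and 87 at 1 h, and it overlaps 4930417H01Rik on the other strand. The importer gene Slc39a6 went from 36, 65 and 45 to 215, 244 and 237 at 1 h of IL-4 and to 19, 20 and 25 at 0.5 h of LPS. The importer gene Slc39a12 had 19, 19 and 18 in untreated samples and 8 to 31 up to 2 h of IL-4, and then reached 278, 134 and 132 at 4 h, with replicate 1 above the others. After 2 h of LPS it was at 0, 1 and 1. The LPS difference of Slc39a6 at 0.5 h was -1.12 ± 0.26, and -0.86 without replicate 2, which did not pass.

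**Figure D2:**
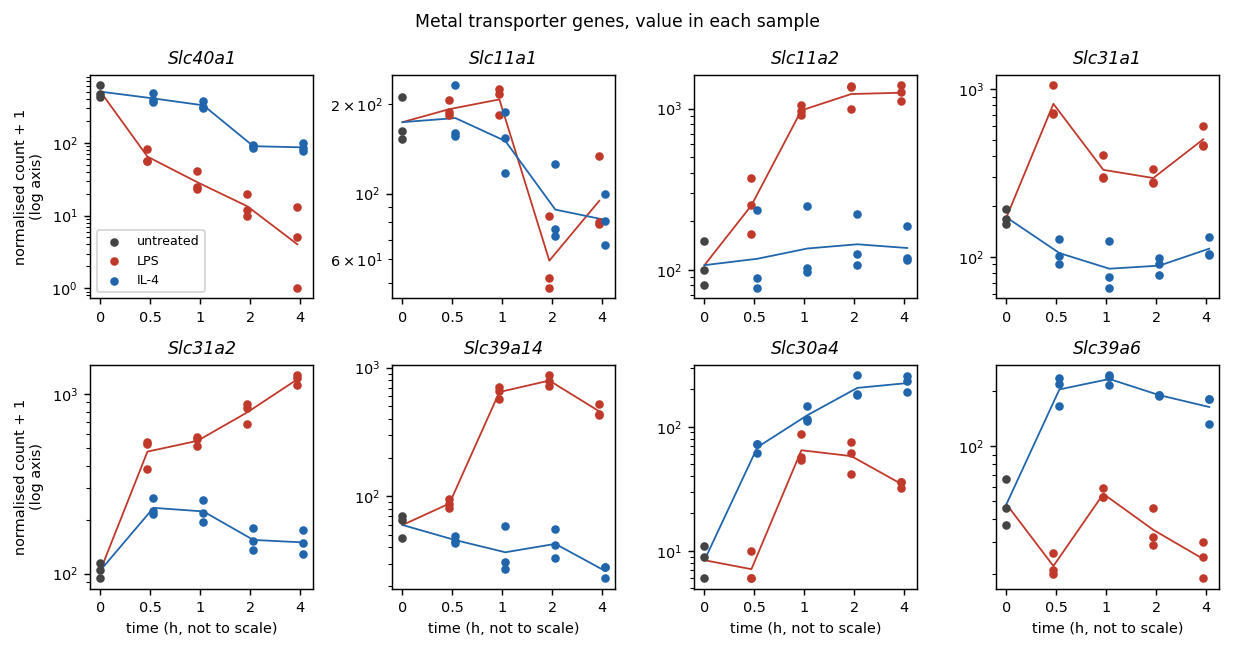
Normalised read counts plus 1 (log axis) of 8 metal transporter genes in each of the 27 samples against time, with untreated samples at 0 h, LPS in red and IL-4 in blue. Points are samples and lines join the geometric means of 3 replicates. Slc40a1 falls after both stimuli, Slc11a2 and Slc39a14 rise after LPS, and Slc30a4 and Slc39a6 lie highest after IL-4.

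Sugar transporters were 10 genes. LPS changed 8 (3 rises and 5 falls) and IL-4 changed 4 (3 and 1), beside 87.6% and 40.3% of all genes. Slc2a6 (chr2:27021365-27027998, minus strand), a lysosomal hexose transporter, had 52, 68 and 143 in untreated samples, 1435, 2367 and 2327 at 0.5 h, then 1653, 3667 and 3595 at 2 h of LPS. The replicates did not overlap with untreated at any LPS time, and replicate 1 was the lowest at each of them. The difference at 2 h was 5.11 ± 0.38, and 5.19 without replicate 1. Slc2a1, the main glucose uptake carrier of activated macrophages, rose after both stimuli, from 50, 45 and 46 to 401, 335 and 319 at 0.5 h of LPS and 108, 120 and 121 at 1 h of IL-4, and it overlaps Gm12867 and Gm52706 on the other strand. Slc45a4 fell after both, from 298, 266 and 256 to 4, 8 and 5 at 4 h of LPS and 69, 51 and 42 at 1 h of IL-4. The IL-4 rise of Slc2a6 at 0.5 h, 1.13 ± 0.30, was 0.99 without replicate 2 and did not pass.

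Mono- and dicarboxylate transporters were 9 genes, each changed by LPS (5 rises and 4 falls), beside 87.6% of all genes. IL-4 changed 4 (1 and 3), beside 40.3%. Slc16a10, which carries aromatic amino acids and thyroid hormones, had the highest values. They were 977, 898 and 903 in untreated samples, 7525, 5790 and 3861 at 0.5 h of LPS and 785, 630 and 618 at 2 h, and 199, 167 and 127 at 2 h of IL-4. The lactate exporter gene Slc16a3 rose by 2.00 ± 0.22, from 18, 20 and 25 to 104, 78 and 79 at 4 h of LPS. Slc16a1, a carrier of lactate and pyruvate in both directions, was low, with 6, 5 and 5 in untreated samples and 21, 21 and 35 at 4 h of LPS, and it was kept through its LPS samples. Slc13a3, a sodium-coupled carrier of succinate and other dicarboxylates, was likewise kept through its LPS samples, with 6, 3 and 2 in untreated samples and 146, 106 and 99 at 1 h. The same holds for Slc5a12, at 1, 3 and 3 in untreated samples. The LPS rises of Slc16a1, Slc13a3 and Slc5a12 thus rest on the choice of genes. Slc16a7, a high-affinity carrier of pyruvate, fell from 475, 496 and 507 to 20, 20 and 22 at 2 h of LPS, a difference of -4.51 ± 0.14.

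**Figure D3:**
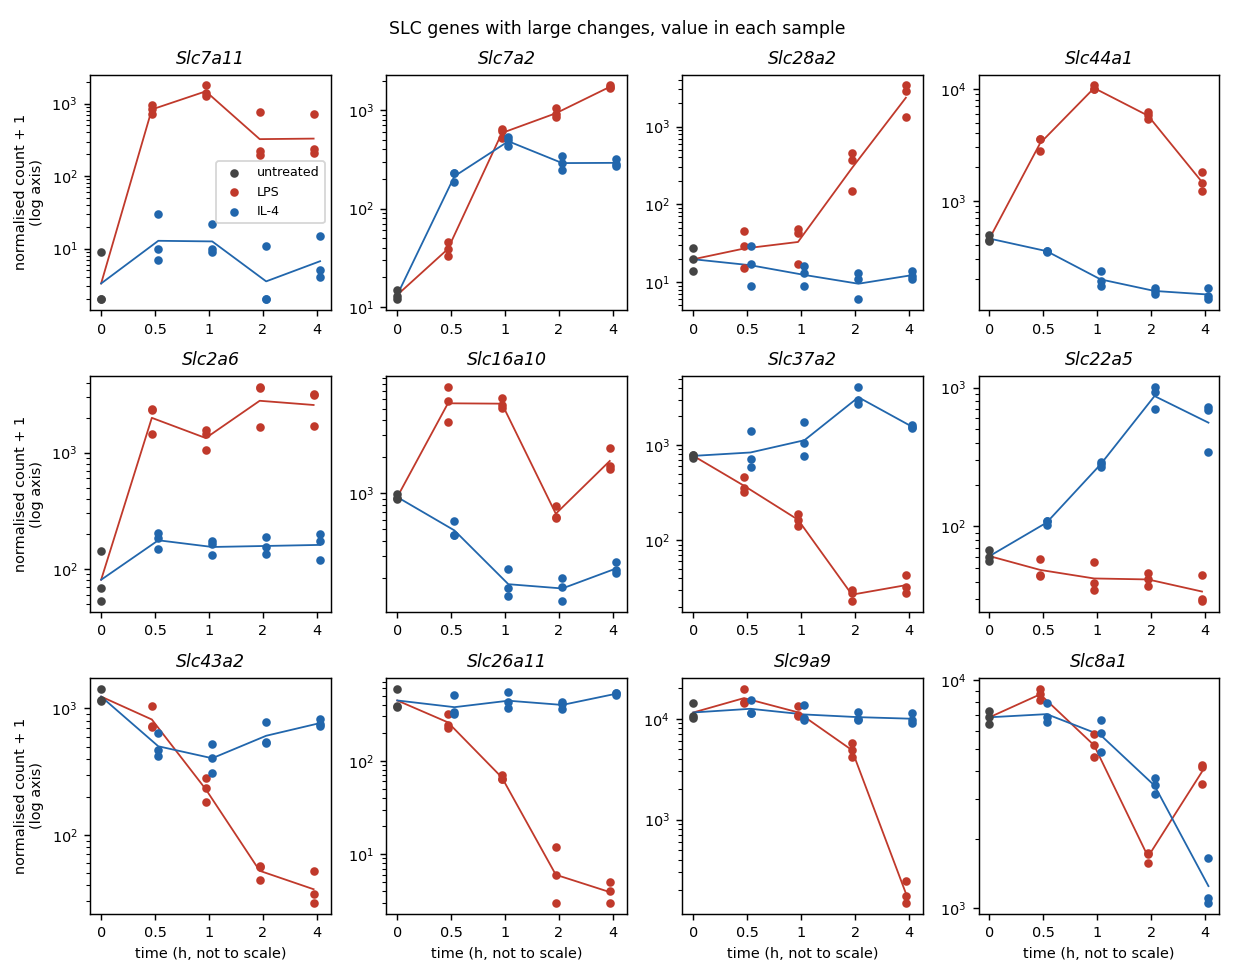
Normalised read counts plus 1 (log axis) of 12 genes with large changes in each of the 27 samples against time, with untreated samples at 0 h, LPS in red and IL-4 in blue. Points are samples and lines join the geometric means of 3 replicates. Slc7a11, Slc28a2 and Slc44a1 separate the stimuli upward for LPS, Slc37a2 and Slc22a5 upward for IL-4, and Slc9a9 is lowest at 4 h of LPS.

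Nucleoside transporters were 7 genes. LPS changed 6 (4 rises and 2 falls) and IL-4 changed 2 (1 and 1), beside 87.6% and 40.3% of all genes. With equal totals the LPS split was 2 rises and 4 falls. Slc28a2 (chr2:122426435-122461133, plus strand), a sodium-coupled importer of purine nucleosides, rose late. Its values were 13, 26 and 19 in untreated samples, 16, 42 and 47 at 1 h of LPS, 148, 368 and 452 at 2 h, then 1334, 2851 and 3398 at 4 h. Replicate 1 was the lowest in each of these groups, and the difference at 4 h was 6.90 ± 0.51 (adjusted p = 9.9e-09), or 7.07 without replicate 1. Its near copy Slc28a2b, kept through LPS samples, was at 0 in untreated samples and at 18, 57 and 70 at 4 h. Reads with several hits were removed, so the split of reads between both copies is uncertain. The lysosomal nucleoside transporter gene Slc29a3 fell after both stimuli, from 280, 243 and 280 to 68, 49 and 64 at 0.5 h of LPS and 133, 82 and 104 at 0.5 h of IL-4. Slc29a1 rose after IL-4 to 80, 61 and 64 at 2 h from 45, 35 and 28, by 0.92 ± 0.20, and did not pass without replicate 3 (0.80).

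Peptide and histidine transporters were 3 genes. Slc15a3, a lysosomal exporter of histidine and of bacterial dipeptides, rose after both stimuli at every time. It had 118, 118 and 119 in untreated samples, 1529, 1314 and 1283 at 0.5 h, then 1576, 1733 and 1569 at 4 h of LPS, and 310, 342 and 338 at 0.5 h of IL-4. The replicates lay close together, the 4 h difference was 3.77 ± 0.11, and the gene overlaps Tmem132a on the other strand. Slc15a4, its relative that is needed for signalling from endosomal Toll-like receptors, fell by 1.02 ± 0.11 at 0.5 h of IL-4. At 4 h of LPS it differed by 0.49 ± 0.12, which turned to -0.11 with equal totals and did not pass without replicate 2 (0.40).

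Vitamin, choline and acetyl-CoA transporters were 10 genes, each changed by LPS (2 rises and 8 falls), beside 87.6% of all genes. IL-4 changed 7 (2 and 5), beside 40.3%. One of the rises was that of Slc44a1 (chr4:53440413-53622478, plus strand), a choline transporter that feeds phosphatidylcholine synthesis. It had 436, 440 and 497 in untreated samples, 3582, 3550 and 2775 at 0.5 h, 10822, 9917 and 9913 at 1 h, then 1816, 1436 and 1219 at 4 h of LPS. After IL-4 it declined to 130, 163 and 139 at 4 h. The difference was 4.48 ± 0.14 at 1 h of LPS and -1.67 ± 0.11 at 4 h of IL-4, and no replicate of either overlapped with untreated. Slc33a1, which carries acetyl-CoA into the endoplasmic reticulum, fell early, from 107, 95 and 98 to 18, 15 and 19 at 0.5 h of LPS, and was at 87, 167 and 204 at 4 h. Slc46a3, a lysosomal transporter, was lowest at 1 h of LPS with 19, 22 and 19, from 149, 158 and 134.

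Transporters of sodium, potassium, calcium and protons were 16 genes, each changed by LPS (7 rises and 9 falls), beside 87.6% of all genes. IL-4 changed 10 (4 and 6), beside 40.3%. The LPS split was 8 rises and 7 falls with median-of-ratios scaling and 3 and 13 with equal totals. Slc9a9 is the gene of the highest untreated values and is 560561 bases long (chr9:94669892-95230452, plus strand). It had 14239, 10203 and 10565 in untreated samples, 19799, 14227 and 14607 at 0.5 h (adjusted p = 0.054) and 13477, 10827 and 10612 at 1 h of LPS, then 5756, 4130 and 4895 at 2 h, then 243, 148 and 174 at 4 h, a difference of -5.96 ± 0.20 (adjusted p = 1.2e-12). After IL-4 its values stayed between 8978 and 15345. Slc8a1, the sodium-calcium exchanger, is 365283 bases long and fell from 7321, 6447 and 6864 to 1741, 1578 and 1727 at 2 h of LPS, stood at 4263, 3509 and 4161 at 4 h, and reached 1660, 1054 and 1112 at 4 h of IL-4. The potassium-chloride cotransporter genes Slc12a4 and Slc12a7 rose. Slc12a4 went from 41, 47 and 61 to 493, 508 and 541 at 1 h of LPS, and Slc12a7 from 188, 195 and 210 to 797, 614 and 744 at 2 h of LPS and 713, 686 and 705 at 2 h of IL-4.

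Inorganic anion transporters were 12 genes. LPS changed 9 (4 rises and 5 falls) and IL-4 changed 4 (3 and 1), beside 87.6% and 40.3% of all genes. The LPS split was 6 rises and 3 falls with median-of-ratios scaling and 3 and 8 with equal totals. Slc4a7, a sodium-bicarbonate cotransporter, rose to 4270, 5534 and 5947 at 1 h of LPS and to 992, 1033 and 1230 at 1 h of IL-4, from 426, 569 and 589. Slc26a11, a sulfate transporter, fell from 590, 389 and 377 to 4, 3 and 2 at 4 h of LPS, a difference of -6.82 ± 0.37, and after IL-4 its F test gave an adjusted p of 0.31. The phosphate importer gene Slc20a1 rose from 60, 54 and 69 to 294, 320 and 364 at 0.5 h of LPS and had fallen to 21, 11 and 8 at 2 h. Slc26a6, an anion exchanger, rose from 13, 15 and 20 to 57, 62 and 55 at 4 h of IL-4, by 1.81 ± 0.17. The fall of Slc20a1 at 4 h of IL-4, -1.04 ± 0.28, was -1.08 without replicate 2 and -0.66 without replicate 3, and neither passed.

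Mitochondrial carriers, all of family 25, were the largest class with 35 genes. LPS changed 30 (11 rises and 19 falls) and IL-4 changed 12 (4 and 8), beside 87.6% and 40.3% of all genes. The LPS split was 12 rises and 18 falls with median-of-ratios scaling and 7 and 26 with equal totals. Slc25a22, a carrier of glutamate into mitochondria, rose late, from 41, 30 and 43 in untreated samples and 45, 22 and 24 at 1 h of LPS to 541, 797 and 707 at 2 h, then 907, 1247 and 1173 at 4 h. That 4 h difference was 4.83 ± 0.28 (adjusted p = 5.4e-10). Mitoferrin-1 (Slc25a37), the importer of iron for heme and iron-sulfur clusters, went from 245, 227 and 209 to 1905, 1633 and 1582 at 1 h of LPS and to 145, 135 and 147 at 1 h of IL-4, and shares its span with Gm31896 and Gm27222. Slc25a27, an uncoupling protein homologue, fell from 44, 60 and 52 to 0, 4 and 2 at 2 h of LPS. The dicarboxylate carrier gene Slc25a10 rose by 0.60 ± 0.22 at 1 h of LPS, and that call was lost without replicate 1 or without replicate 2 (0.51 and 0.46). It had 48, 38 and 53 in untreated samples and 36, 18 and 22 at 0.5 h of IL-4. That IL-4 difference did not pass with all replicates, whereas without replicate 1 it was -1.13 and passed. Of the IL-4 falls, that of Slc25a37 at 1 h, -0.67 ± 0.15, was -0.75 without replicate 3 and did not pass.

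Transporters of nucleotide sugars and sugar phosphates were 25 genes, and LPS changed 21, with 4 rises and 17 falls, or 8 and 14 with median-of-ratios scaling and 2 and 20 with equal totals. IL-4 changed 6, with 5 rises and 1 fall, and equal totals gave 5 of each. Among all genes tested LPS changed 87.6% and IL-4 40.3%. Slc37a2 (chr9:37229149-37255738, minus strand) went in opposite directions after the 2 stimuli. It had 782, 737 and 791 in untreated samples, 29, 22 and 27 at 2 h of LPS and 4075, 2951 and 2681 at 2 h of IL-4, and the 3 groups did not overlap. Replicate 1 was the highest at the first 3 IL-4 times, and the IL-4 difference at 2 h was 2.05 ± 0.30, or 1.88 without replicate 1. The gene overlaps Gm10177 on the other strand. Slc35b2, which brings the sulfate donor PAPS into the Golgi, rose at once and briefly, from 24, 26 and 24 to 349, 295 and 213 at 0.5 h, then 40, 33 and 48 at 2 h of LPS. Slc35f5 fell from 141, 159 and 152 to 41, 48 and 55 at 2 h of LPS and 60, 63 and 73 at 2 h of IL-4.

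Transporters of organic ions, bile acids and urea were 8 genes, each changed by LPS (2 rises and 6 falls), beside 87.6% of all genes. IL-4 changed 5 (3 and 2), beside 40.3%. The LPS split was 2 rises and 4 falls with median-of-ratios scaling and 0 and 8 with equal totals. Slc22a5 (chr11:53864542-53891703, minus strand), the carnitine importer that supplies fatty acid oxidation, had 55, 59 and 67 in untreated samples, 268, 289 and 281 at 1 h, then 697, 1010 and 933 at 2 h of IL-4, a difference of 3.83 ± 0.22 (adjusted p = 3.4e-08). After 4 h of LPS it was at 44, 29 and 28. The urea transporter gene Slc14a1 rose from 37, 19 and 23 to 215, 203 and 240 at 4 h of IL-4 and fell to 2, 3 and 3 at 2 h of LPS, and it overlaps Gm36338 on the other strand. Slc22a21, beside Slc22a5 on chromosome 11 and alike in sequence, was at 99, 171 and 174 at 2 h of IL-4, from 40, 74 and 71. The LPS fall of Slc22a5 at 4 h, -0.85 ± 0.22, and the IL-4 rise of Slc22a21 at 2 h, 1.26 ± 0.35, did not pass without replicate 2 (-0.77 and 1.28) or without replicate 3 (-0.66 and 1.24).

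Transporters of neurotransmitters, amines and osmolytes were 10 genes. LPS changed 9 (4 rises and 5 falls) and IL-4 changed 6 (5 and 1), beside 87.6% and 40.3% of all genes. The LPS split was 4 rises and 4 falls with median-of-ratios scaling and 1 and 7 with equal totals. Slc6a6, the taurine transporter, rose to 5253, 3214 and 3220 at 0.5 h of LPS and fell to 1084, 958 and 811 at 1 h of IL-4, from 1996, 1873 and 2062, and it overlaps Gm44981 on the other strand. Slc17a5, the lysosomal exporter of sialic acid, went from 64, 55 and 55 down to 9, 10 and 17 at 4 h of LPS and up to 119, 144 and 149 at 4 h of IL-4. Both fatty acid transporter genes above the minimum fell after LPS. Slc27a1 went from 162, 244 and 220 to 34, 70 and 72 at 2 h, and its IL-4 fall at 2 h, -0.78 ± 0.18, did not pass without replicate 2 (-0.70) or 3 (-0.76).

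**Figure D4:**
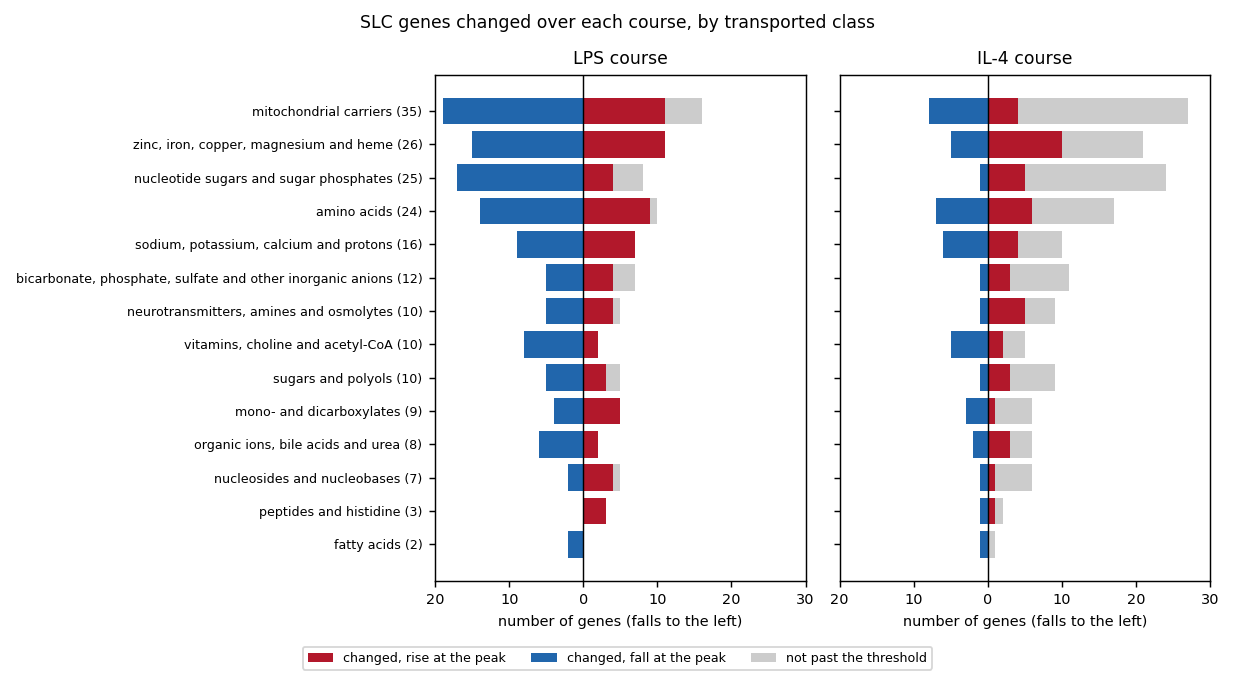
Number of genes in each of the 14 transported classes (rows, with the number of genes) that changed over the LPS course (left) and the IL-4 course (right), with rises to the right in red, falls to the left in blue and genes not past the threshold in grey. The largest class, mitochondrial carriers, has 11 rises and 19 falls after LPS. Among all genes tested LPS changed 87.6% and IL-4 40.3%.

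In the direct comparison of the stimuli at the same time, 54 genes were higher and 65 lower after LPS than after IL-4 at 0.5 h (background 18% higher and 35.8% lower). At 1 h these were 56 and 81 (24% and 40.5%), at 2 h 51 and 96 (26.4% and 42.3%), and at 4 h 45 and 98 (26.1% and 41.9%). With equal totals the 4 times had 38 higher and 90 lower, 37 and 106, 33 and 125, and 37 and 135. The median-of-ratios scaling gave 64 and 53, 69 and 71, 57 and 79, and 52 and 87. The sign of LPS minus IL-4 was opposite at 0.5 h and 4 h, with a call at each, in 20 genes (9.95%, beside 7.15% of all genes) with a group mean of at least 50.

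Against untreated, 36 genes (17.9%, beside 13.8% of all genes tested) were called in opposite directions by LPS and IL-4 at the same time, 13 higher after LPS and lower after IL-4 and 23 the reverse. Of these, 26 also had a mean of at least 50 and no overlap of replicates at the peak in both courses. The share of all genes for this was not counted. They were picked for this pattern and share their untreated samples, so the values are a description. Slc37a2 had the largest difference, -6.89 ± 0.27 at 2 h as LPS minus IL-4. For the choline transporter gene Slc44a1 it was 5.69 ± 0.13 at 1 h, for Slc16a10 4.96 ± 0.21 at 1 h and for Slc39a14 4.12 ± 0.22 at 4 h. The carnitine importer gene Slc22a5 had -4.39 ± 0.23 at 2 h, and Slc25a37 had 3.57 ± 0.17 at 1 h.

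**Figure D5:**
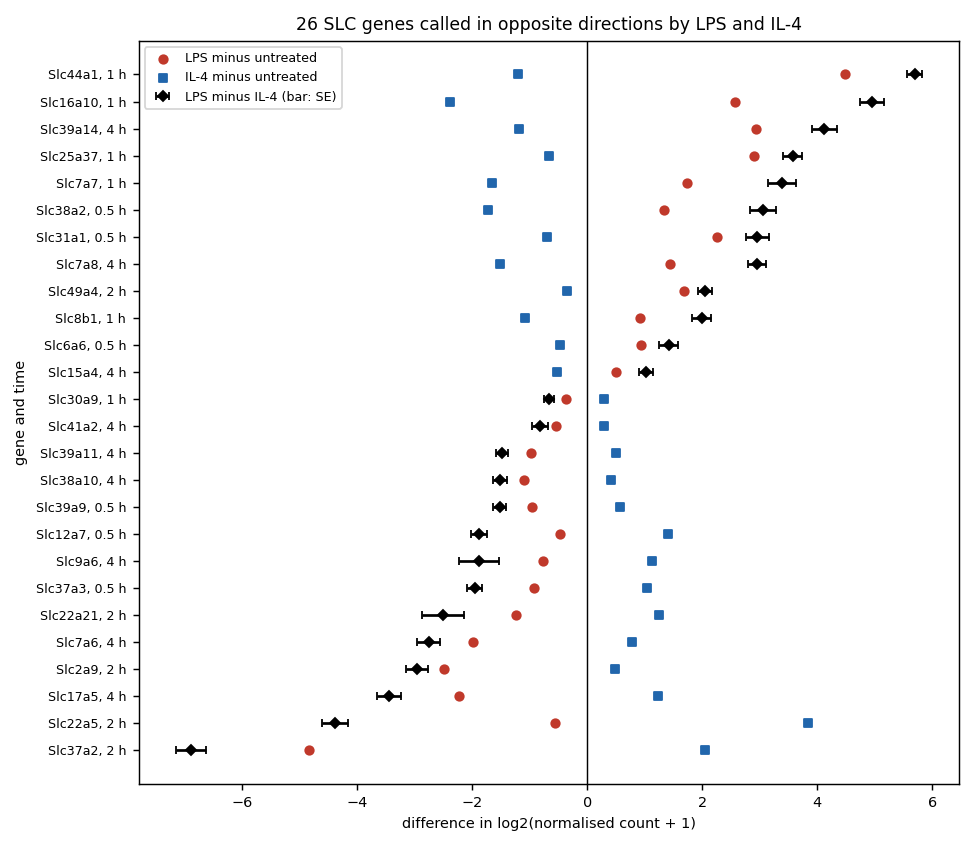
Difference in log2(normalised count + 1) of the 26 genes called in opposite directions at the same time (rows, with the time), for LPS minus untreated (red circles), IL-4 minus untreated (blue squares) and LPS minus IL-4 (black diamonds with SE). The ends of the plot are Slc37a2 at -6.89 and Slc44a1 at 5.69.

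A list of 30 partner genes, whose products work beside these transporters, was counted in the same tests. LPS changed each of the 30, with 14 rises and 16 falls, and IL-4 changed 15, with 4 rises and 11 falls, beside 87.6% and 40.3% of all genes. Around ferroportin, the transferrin receptor gene Tfrc went from 47, 27 and 29 to 8, 10 and 3 at 1 h of LPS and 355, 189 and 206 at 4 h of IL-4. Fth1, the ferritin heavy chain that stores iron, went from 250, 227 and 380 to 1107, 2854 and 2778 at 4 h of LPS and 101, 78 and 55 at 2 h of IL-4. The hexokinase gene Hk2, which traps the glucose brought in by Slc2a1, rose to 994, 650 and 692 at 2 h of LPS and fell to 31, 23 and 22 at 0.5 h of IL-4, from 99, 85 and 86. The glutamate-cysteine ligase genes Gclc and Gclm, which use the cysteine supplied through Slc7a11, were lower at 4 h of LPS, with differences of -2.26 ± 0.42 and -2.34 ± 0.47. Of the organic anion transporters, named Slco rather than Slc, Slco3a1 rose from 132, 88 and 104 to 27193, 15461 and 14246 at 4 h of LPS and Slco2b1 fell from 419, 309 and 306 to 1, 0 and 0.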

How the data were processed

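Chromatin-associated RNA of 27 BMDM samples in 9 groups of 3 was sequenced after a Smart-seq2 protocol with random primers. The authors mapped single-end reads of 76 bp to mm10 with TopHat2 (2.1.1) against RefSeq, discarded multi-mapping and blacklisted reads (bedtools 2.29.2, R 3.6.2), counted reads per gene over GRCm38.p6 and scaled the libraries on invariant genes. The values deposited by the authors are a score, namely these normalised counts rounded to whole numbers, so no count model was used. Use of strand was not stated, and of the 201 genes 74 overlap another gene.

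Genes with at least 10 in at least 3 samples (13901, holding 99.6% of the total) were tested as log2(value + 1), a scale that understates the change of low genes, with limma 3.58.1 (R 4.3.3, trend, Benjamini-Hochberg over all genes tested, threshold 0.05). Each course of 15 samples had an F test and a contrast per time. LPS and IL-4 were compared in 1 fit of 27 samples. Raw depth is not kept in these values, so no counting interval is given. The script was tested on simulated data.

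The members, lists and rules were chosen with earlier results of these data known. Named genes were 28 textbook genes, per stimulus the 8 largest rises and 8 largest falls, per class the largest rise and fall, and the 6 largest opposite differences. Apart from the textbook genes they had a mean of at least 50 and no overlap at the peak, and were picked by these values. Of the textbook genes, Slc25a1 and Slc46a1 were below the minimum. Alternatives were a pseudocount of 8, 2 other scalings, 2 other filters, a replicate block, leaving out each replicate, and averaging replicates 2 and 3. The study's impulse model was not run.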

Additional observations from a re-analysis of the deposited data

Results flagged for a closer look

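The difference between LPS and IL-4 turned its sign between 0.5 h and 4 h in 20 of the 201 genes (9.95%, beside 7.15% of all genes tested), 7 of them named. These are genes with a mean of at least 50 in any group that limma called at both times with opposite sign, and also between both times. They were picked for this pattern, so the values are a description. As LPS minus IL-4 at 4 h less that at 0.5 h on the log2 scale, the turn was 5.08 for Slc25a22, the glutamate carrier of mitochondria, and 5.02 for the arginine transporter gene Slc7a2. Both were lower after LPS at 0.5 h and higher at 4 h. The reverse order was found in Slc43a2 with -5.07, Slc38a2 with -4.35, Slc16a7 with -3.52, Slc20a1 with -3.37 and Slc27a1 with -2.17.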

How the results depend on the processing

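A pseudocount of 8, median-of-ratios scaling and no filter left all 26 counts of called genes within 1.5 times. With equal totals, which lower the LPS values (all-gene LPS medians of -0.73 to -0.91, beside -0.24 to -0.30 as deposited), 99 genes were lower at 0.5 h of LPS (64 as deposited) and 33 higher at 2 h (56), 37 and 33 were higher after LPS than after IL-4 at 1 h and 2 h (56 and 51), and Slc15a4 at 4 h of LPS turned from 0.49 to -0.11. A mean of at least 50 left 113 of the genes to test. Then LPS changed 112, with 32, 42, 51 and 52 lower at the 4 times, and 36, 46, 58 and 57 were lower after LPS than after IL-4.

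The IL-4 counts depended on the replicates. Without 1 replicate each, IL-4 changed 48 to 112 genes (93 with all), namely 112 without replicate 1, and 48 without replicate 2 and likewise without replicate 3, of which 47 and 48 were among the 93. The share of all genes that IL-4 changed was 47.1%, 16.1% and 15.6% without replicates 1, 2 and 3 (40.3% with all). Rises after IL-4 then ran from 11 to 21, 18 to 27 and 28 to 48 (0.5, 1 and 4 h), falls from 5 to 31, 16 to 40, 20 to 40 and 15 to 38 at the 4 times, and LPS falls at 0.5 h from 42 to 66. With replicates 2 and 3 averaged, IL-4 changed 53, with 8, 21 and 16 falls at 0.5, 2 and 4 h. Fewer samples entered these fits. With a replicate block LPS changed 187 genes and IL-4 123, and 37 were lower at 1 h of IL-4 (24 without it). Deviations of same-numbered samples correlated at 0.35 to 0.71 for replicate 1, 0.090 to 0.36 for replicate 2 and 0.20 to 0.45 for replicate 3, and 19 of 27 samples were closest to their own number. Of 108 pairs 106 lay over 0.1. Since 2 did not and no source gives a shared origin, the main fit had no replicate term. Whether same-numbered samples share an origin or a batch was not tested.

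Of 128 single gene values, 128 kept direction and call under a pseudocount of 8, 127 under median-of-ratios, 124 under equal totals, 123 with no filter, 122 with the block, and 122, 114 and 111 without replicates 1, 2 and 3. The cause was not tested.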

Other observations

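Rises and falls were counted by the time of their peak, in the order of the 4 times. After LPS the rises numbered 18, 24, 11 and 18 and the falls 29, 17, 31 and 35. After IL-4 the rises numbered 3, 8, 17 and 22 and the falls 10, 10, 10 and 13. The shares of all genes by time of peak were not counted, and these counts were not tested.

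Slc25a12, an aspartate-glutamate carrier of mitochondria, was chosen after its values were seen. It had 176, 178 and 172 in untreated samples, 141, 172 and 178 at 0.5 h of LPS and 1874, 1774 and 1699 at 4 h, against 243, 240 and 229 at 4 h of IL-4. The LPS samples from 1 h on lay above the untreated ones. The rule on classes also named Slc10a7, Slc22a15 and Slc6a20b. Slc10a7 had 743, 892 and 859 in untreated samples, 374, 369 and 386 at 1 h of LPS, and 683, 623 and 654 at 1 h of IL-4, where its difference of -0.34 did not pass without replicate 2 (-0.26) or replicate 3 (-0.32). Slc22a15 rose from 22, 27 and 36 to 56, 60 and 69 at 1 h of LPS, and Slc6a20b rose from 18, 24 and 26 to 70, 68 and 81 at 2 h of IL-4.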
